A study of Mus musculus with 12 samples.

Results

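Internal circular RNAs of 5 or more exons are back-spliced loops that leave out the start of their gene and reach over a long run of its exons. They were chosen from a table of 16445 mouse liver circRNAs by position alone: both ends had to lie on exon boundaries of the same GENCODE M21 protein_coding transcript on GRCm38. The span had to be below 50000 bp, and the circle had to hold at least 5 annotated exons, the first of them numbered 3 or higher. In all, 2939 of the 16445 circRNAs (17.9%) met this rule, from 1531 host genes. The livers came from 12 mice of the strain given in the labels as C57BL/8, all of which had been injected 2 times a week with 10% carbon tetrachloride (CCl4) at 10 µl per 10 g of body weight to cause liver fibrosis. The 6 Control mice had CCl4 alone. The other 6 mice were also given PZH, which is Pien Tze Huang, a mixture used in traditional Chinese medicine, at 25 mg/ml by daily dosing in weeks 2 to 8. All livers were collected in week 8. Every comparison is therefore CCl4 with PZH against CCl4 alone, and no CCl4-free liver was analysed here. The RNA is of whole liver, in which fewer cells of a type and less RNA per cell cannot be told apart.

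A circRNA forms when the spliceosome joins the 3' end of an exon to the 5' end of the same or an upstream exon in place of the next exon downstream. The loop has no free ends and resists the exonucleases that degrade linear RNA, so circRNAs can build up in tissues whose cells divide slowly, such as liver. The same gene often yields several circles, because a splice site at either end can be paired with different partners. Only reads across the back-splice junction separate a circle from its linear mRNA. The values therefore report the 2 ends of each circle, and which exons between them the RNA keeps was not measured. Exon numbers and exon lengths below are those of the annotation.

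The junction is the sequence that exists in the circle and not in the linear transcript. It is printed here for the 5 most abundant members and for 5 of the members with a small p, namely the 3 smallest on the higher side and 2 of the 3 smallest on the lower side. Each line holds the last 15 annotated bases of the last exon in lower case, followed by the first 15 bases of the first exon in capitals, so the change of case marks the back-splice (GENCODE M21 transcripts, GRCm38, written 5′ to 3′ along the host gene).
Gigyf2 exons 4 to 8 (chr1:87364104-87380008, plus strand): gaagaaaagatgtagGCTCCGTGCTCTGTC
Tmem56 exons 4 to 8 (chr3:121228310-121235764, minus strand): tactactttgtattgGCAATGGTCTATGAC
Phf21a exons 3 to 7 (chr2:92214049-92230724, plus strand): ttgagtgagaaacagGGGACTGGAGAGCTG
Mlxipl exons 3 to 7 (chr5:135121506-135124017, plus strand): tcatggagatatcagATGTGCAACGGAGGA
Psd3 exons 6 to 10 (chr8:67882981-67908889, minus strand): aaggatcttctgaaaTAGGGACCGTTGCTT
Fmo5 exons 3 to 7 (chr3:97635511-97645920, plus strand): ctcaagtgttcaaagGAAGCCCCTGAGGAA
Lsm14a exons 3 to 8 (chr7:34353390-34371184, minus strand): ttgtgatgataatagTCTTCACTAGGTTCG
Spag5 exons 17 to 23 (chr11:78319986-78321766, plus strand): cagcatgtctatgagTGCCAGAACCAGCTC
Slc41a2 exons 4 to 8 (chr10:83281370-83304375, minus strand): cgccagttatcaacgGTAAATGTTGGGAAG
Pzp exons 7 to 11 (chr6:128513736-128521185, minus strand): tttttgagagttgtgTTTTACCCAAATTTG

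Most members stayed close to the lower limit of the rule. Of the 2939, 1229 (41.8%) held exactly 5 exons, 731 held 6, 431 held 7 and 185 held 10 or more, up to a single circle of 20 exons. Just outside the limit were 1982 internal circles of 4 exons. The annotated exons of a member added up to a median of 704 nt (middle 50% of members 571 to 894.5 nt, range 218 to 3041 nt), against 271 nt for internal 2-exon circles and 407 nt for those of 3 to 4 exons. The median genomic span was 12466 bp, between 1001 and 49942 bp. The introns next to the circle had medians of 4313 bp upstream and 3970 bp downstream, near the 4107 and 3996 bp of internal circles of 3 to 4 exons.

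Almost all members were made of coding sequence. In 2815 of 2939 (95.8%) every annotated base was coding, while 105 reached into the 5' UTR and 19 into the 3' UTR. The rule favours this, as it asks for a protein_coding transcript and leaves out exons 1 and 2. The share was 95.5% for internal circles of 2 exons and 96.3% for those of 3 to 4. Among the fully coding members 1119 (39.8%) had an exon length divisible by 3, beside 38.3% of the fully coding circles in the whole table. Of the most abundant members, those of Mlxipl (501 nt), Nr1h4 (636 nt), Asph (576 nt) and Abcc2 (564 nt) belonged to this group. The exon count depends on the transcript chosen: 144 members span fewer than 5 exons in at least 1 other matching protein_coding transcript, among them the Phf21a and Usp3 circles, with 4. A further 17 members matched exons of 2 genes.

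**Figure D1:**
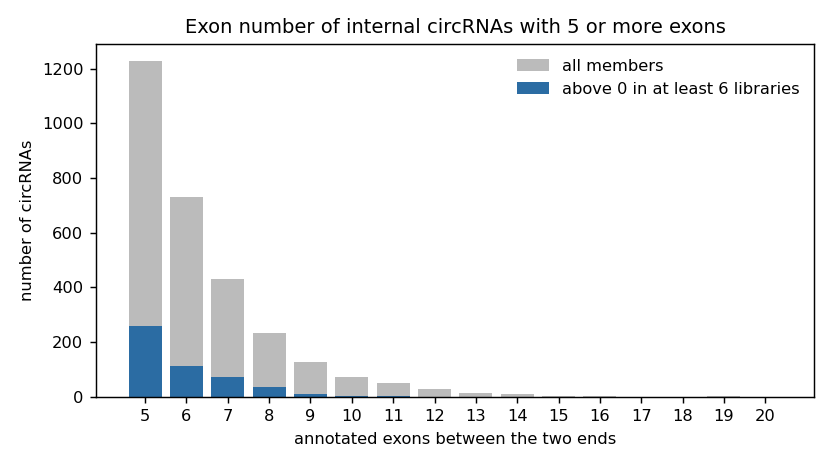
Number of circRNAs (vertical axis) by the number of annotated exons between their ends (horizontal axis). Grey bars show all 2939 members and blue bars the 504 above 0 in at least 6 of 12 libraries; both are highest at 5 exons.

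Values are in SRPBM, a level of back-spliced reads normalised to library size by the submitters, whose formula is not given in the sources used here. By this measure members were mostly rare. A single library held 1530 of them (52.1%, against 44.2% of all circRNAs), 504 were above 0 in at least 6 libraries (17.1%, against 23.5%) and 117 in all 12. A value of 0 means that a circle was listed at 0 and not that it was absent, since the smallest values above 0 lay between 0.584 and 0.719 SRPBM in the 12 libraries. Repeated detection differed with size: 21.2% of the members with 5 exons were above 0 in at least 6 libraries, 15.3% with 6 exons, 16.4% with 7 to 8 and 7.32% with 9 or more. Only 133 members averaged at least 5 SRPBM over the 12 libraries and 6 averaged at least 100. The 8 most abundant carried 29.6% of the signal of all members and the leading 117 carried 66.7%.

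The most abundant member came from Gigyf2, which encodes a protein that represses translation of bound mRNAs. Its circle of exons 4 to 8 lay at 285 (lowest), 320 (median) and 371 SRPBM (highest) in the Control libraries and at 267, 340 and 379 in PZH. Both groups covered much the same range, and the log2 difference in limma was 0.03 with an SE of 0.09 (adjusted p = 0.974). This circle made up 95.2% of all circRNA signal of its gene, on average over the 12 libraries, although 17 other Gigyf2 circles were listed.

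Tmem56, which encodes a membrane protein with several membrane-spanning segments, followed at 175, 222 and 280 SRPBM in Control and 200, 251 and 283 in PZH. The groups overlapped over most of their range, at a log2 difference of 0.16 (adjusted p in limma 0.737, or 0.0353 with no filter on low circRNAs). With no filter, circRNAs above 0 in fewer than 6 libraries also enter the spread estimate that limma shares. The second value is therefore not counted as a call. The circle of Phf21a lay at 109, 145 and 185 in Control and 143, 168 and 189 in PZH, again with overlap. Phf21a encodes a reader of unmodified histone H3 tails in a demethylase complex, and 243 of the 396 nt in its circle are 5' UTR. Each of these circles was also the main product of its gene, at 88.4% of the host's circRNA signal for Tmem56 and 92.5% for Phf21a.

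The circles of Mlxipl, Psd3 and Nr1h4 filled the next places. The circle of exons 3 to 7 of Mlxipl, which encodes the carbohydrate-responsive factor ChREBP, lay at 96.4, 132 and 171 SRPBM in Control and 157, 169 and 193 in PZH. Of the 6 Control libraries, 5 were below every PZH library, and replicate 3 was within the PZH range. The circle of Nr1h4, the bile acid receptor FXR, lay at 85.5, 102 and 143 in Control and 103, 109 and 139 in PZH. That of Psd3, an exchange factor for ARF GTPases, lay at 83.6, 105 and 139 and at 108, 119 and 162. In these last 2 the groups overlapped.

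The Asph and Abcc2 circles, unlike those above, were not the most abundant circles of their genes. For Psd3 and Abcc2 this contrast was small, as their circles held 45.0% and 41.4% of the circRNA signal of their genes. Asph encodes aspartate beta-hydroxylase, and its circle of exons 4 to 13, with 10 exons the longest of the 8, lay at 76.1, 86.3 and 116 SRPBM in Control and 73.6, 110 and 141 in PZH. It held 10.7% of the gene's circRNA signal, most of which lay on the 2-exon circle of exons 2 to 3. Abcc2 encodes the pump that moves conjugated bilirubin and drugs into bile. Its circle of exons 12 to 16 lay at 60.2, 85.0 and 85.7 in Control and 71.6, 99.2 and 109 in PZH, with 5 of 6 PZH libraries above all Control libraries.

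**Figure D2:**
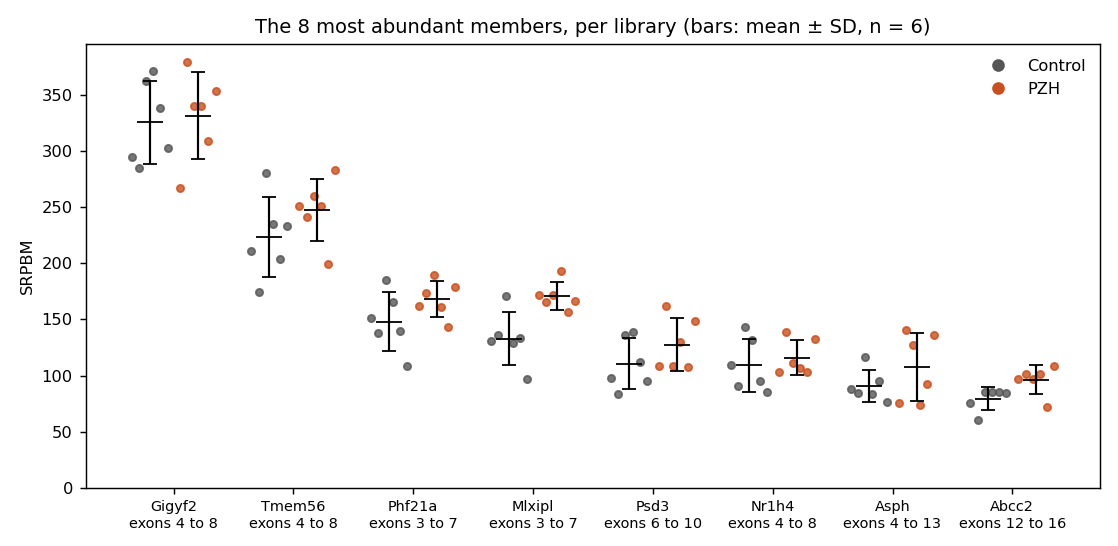
SRPBM (vertical axis) of the 8 most abundant members in each library, Control in grey and PZH in orange, with bars for mean ± SD (n = 6). The 2 groups cover much the same range for Gigyf2, while the Mlxipl and Abcc2 circles have most PZH points above most Control points.

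These 8 circles were set against the other circRNAs of the same gene, which removes any change of the host's circRNA output as a whole. The log2 ratio of the Abcc2 circle to the 15 other Abcc2 circles averaged -0.36 ± 0.12 (SD) over the 6 PZH libraries and -0.65 ± 0.16 over the 6 Control libraries, a difference of 0.28 (exact permutation p = 0.00433, 2-sided, adjusted p = 0.0346 over the 8 genes). The ranges overlapped, at -0.57 to -0.22 and -0.89 to -0.41. With each library left out in turn the difference stayed between 0.23 and 0.33, but the adjusted p lay between 0.0346 and 0.104 and was above 0.05 without 10 of the 12 libraries. On the other side of the ratio, the circle of Abcc2 exons 5 to 6 had means of 99.2 ± 7.35 SRPBM (PZH) and 108.2 ± 20.4 (Control). Differences for the other 7 genes were between -0.08 for Psd3 and 0.66 for Phf21a, with exact permutation p from 0.0455 for Tmem56 to 0.885 for Gigyf2 and adjusted p from 0.182. Single libraries weighed on several of them: without PZH replicate 1 the difference was 0.16 for Phf21a and 0.22 for Tmem56, in place of 0.66 and 0.36, and for Mlxipl it was 0.11 without Control replicate 6, in place of 0.33. The other ranges were 0.17 to 0.33 for Asph and -0.16 to -0.0078 for Psd3, and those of Gigyf2 and Nr1h4 spanned 0.

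Circles of this class rarely stood alone in their gene. Of the 2939 members, 2201 (74.9%) shared at least 1 end with another circRNA of the host, 948 (32.3%) shared both ends with different partners, and 2137 (72.7%) had a smaller circRNA between their ends. Among internal 2-exon circles these shares were 59.3%, 13.4% and 3.90%, where a wider circle also has more room for others inside it. They were 65.8%, 21.2% and 41.1% for internal circles of 3 to 4 exons. Circles of 50 kb or more had higher shares than the members, at 90.1%, 55.0% and 87.5%. The member was the most abundant circRNA of its host in 563 cases (19.2%), compared with 32.8% of the internal 2-exon circles. This share was 28.5% for internal circles of 3 to 4 exons and 8.24% for those of 50 kb or more. It was the only circRNA of the host in 199 cases, for example at Spag5, which encodes the mitotic spindle protein astrin.

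A few genes gave many members. There were 868 hosts with 1 member and 341 with 2, and the highest numbers were 14 for Vwa8, 13 for Kif1b and 12 each for Ehmt1 and Vps50. Vwa8, a mitochondrial ATPase, had 31 circRNAs in the table, of which the members of exons 15 to 20 and 17 to 21 were the strongest long ones, at averages of 3.99 and 3.43 SRPBM. For Kif1b, a kinesin motor, exons 16 to 22 averaged 3.57 and exons 26 to 34 averaged 1.62 SRPBM, each listed at 0 in at least 4 libraries. Of Vps50, of an endosomal recycling complex, exons 3 to 9 averaged 3.28 and exons 13 to 21 averaged 2.63. In Vwa8, Kif1b and Vps50 the long circles were spread over many low junctions.

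Ehmt1, a histone H3 lysine 9 methyltransferase, was the strongest of these hosts. Its circle of exons 4 to 8 lay at 6.51, 9.58 and 13.98 SRPBM in Control and 9.75, 17.3 and 23.6 in PZH, with 0.81 as the log2 fold change in limma (SE 0.27, adjusted p = 0.454). The groups overlapped. The longer circle from the same start, exons 4 to 10, averaged 9.78 ± 3.79 in PZH, and in Control it lay between 0 and 9.59. The most abundant Ehmt1 circle, the non-member of exons 16 to 18, averaged 15.9 ± 3.72 in PZH and 18.7 ± 5.16 in Control.

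Very long circles were seldom found in many libraries. Of the 185 members of 10 or more exons, 11 were above 0 in at least 6 libraries, and the 3 with most exons among these are described here. Zfp638, a zinc finger gene, gave a circle of 19 exons (exons 3 to 21, 1976 nt of exon) that was above 0 in 4 libraries of each group, at up to 5.45 SRPBM in PZH and 5.75 in Control. A circle of 16 exons from Rev1, a polymerase that bypasses damaged DNA, held 2431 nt of exon and was above 0 in 4 PZH and 5 Control libraries, at up to 7.65 and 3.16. Tns1, which links integrins to actin, gave a circle of 12 exons above 0 in 4 PZH and 5 Control libraries. In these 3 the groups overlapped.

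No member passed the test for PZH against Control. In limma over the whole table with Benjamini-Hochberg adjustment, 0 of the 504 members tested had an adjusted p under 0.05, where 0.0517% of all 3870 circRNAs tested did, and the smallest adjusted p of a member was 0.263. At an unadjusted p under 0.05 there were 33 members higher and 7 lower in PZH. That is 6.55% and 1.39% of the members tested, beside 4.55% and 3.0% of all circRNAs. Of the 504, 308 (61.1%) had a log2 fold change above 0, beside 54.3% of all, and the medians were 0.18 and 0.06. The groups did not overlap for 2 of the 504 members on the higher side, where 0.491% of all circRNAs did so. On the lower side there were 0, beside 0.181% of all. For the Lsm14a circle, above 0 in 6 PZH and 0 Control libraries, the lack of overlap followed from the filter. The remaining 2435 members were above 0 in 5 or fewer libraries and were not tested. The median moved to 0.08 without Control replicate 2, where that of all circRNAs was -0.01, and without PZH replicate 3 the number of higher members was 20.

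The members with the smallest p on the higher side were of several kinds. For Fmo5, a flavin-containing monooxygenase of liver, the circle of exons 3 to 7 lay at 12.8, 21.3 and 25.4 SRPBM in Control and 29.9, 32.2 and 44.2 in PZH. The groups did not overlap, and limma gave a difference of 0.80 on the log2 scale (SE 0.20, 95% interval 0.38 to 1.21, adjusted p = 0.263). This circle passed only when the test was limited to circRNAs above 0 in all 12 libraries (limma adjusted p = 0.0140 over 1089 circRNAs tested, 117 of them members). The shorter Fmo5 circle of exons 3 to 6 averaged 4.56 ± 2.87 in PZH and 2.83 ± 0.85 in Control.

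For Lsm14a, which encodes a protein of processing bodies, the circle of exons 3 to 8 was near the detection limit. It was at 0.704, 0.981 and 4.00 SRPBM in PZH, all 6 libraries being above 0. In all 6 Control libraries it was listed at 0 (adjusted p in limma 0.363), so it met the filter through PZH alone. Spag5 exons 17 to 23 lay at 4.94, 12.1 and 15.4 in PZH, and in Control 3 libraries were at 0 and the highest at 9.83 (log2 fold change 2.41, SE 0.68, adjusted p = 0.365). For Srbd1, which encodes an RNA-binding protein, exons 8 to 14 lay at 1.92, 3.98 and 6.61 in Control and 5.94, 9.95 and 13.3 in PZH (adjusted p = 0.454). The last 2 had overlapping groups. With no filter on low circRNAs the adjusted p of Spag5 in limma was 0.0153, a value not counted as a call.

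Among the metabolic genes, Bckdhb encodes the beta subunit of the enzyme that commits branched-chain keto acids to breakdown. Its member of exons 4 to 8 lay at 37.9, 56.9 and 78.2 SRPBM in Control and 67.0, 78.4 and 98.2 in PZH. In limma this is 0.49 higher in PZH on the log2 scale (SE 0.16, adjusted p = 0.454). Non-members of Bckdhb were higher in PZH too. Exons 2 to 6, its most abundant circle, averaged 101.5 ± 19.2 in PZH and 77.2 ± 20.6 in Control. Exons 2 to 8 averaged 12.7 ± 3.22 and 5.34 ± 2.12. The Mlxipl circle described above was 0.38 higher in PZH on the log2 scale (SE 0.11, 95% interval 0.14 to 0.62, adjusted p = 0.430), while its smaller partner of exons 6 to 7 averaged 12.8 ± 4.67 in PZH and 12.6 ± 4.29 in Control. With no filter on low circRNAs, and all 16445 tested, the adjusted p in limma was 0.0281 for Bckdhb and 6.06e-07 for Mlxipl. The fold changes were the same, and the added low circRNAs also enter the spread estimate that limma shares. Neither value is counted as a call, and the reason for the drop was not tested. The 2 others were rare: Arhgap12 exons 4 to 11, of a GTPase-activating protein, and Hecw2 exons 11 to 19, of a ubiquitin ligase, were each above 0 in 5 PZH libraries and 1 Control library, at up to 3.89 and 6.34 SRPBM.

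On the lower side the 8 members with the smallest p were all listed at 0 in some PZH libraries. For Slc41a2, a magnesium transporter, exons 4 to 8 lay at 4.45, 8.30 and 11.6 SRPBM in Control, and in PZH 2 libraries were at 0 and the highest at 5.49 (a log2 difference of -1.87 with an SE of 0.60, limma adjusted p = 0.454). The Slc41a2 circle of exons 4 to 6, with the same start, averaged 4.54 ± 2.20 in PZH and 4.43 ± 2.43 in Control. Other circles of the gene were lower in PZH as well. Exons 7 to 10 averaged 2.71 ± 2.73 in PZH and 8.00 ± 3.17 in Control. Exons 9 to 10, the most abundant, averaged 6.71 ± 2.64 and 10.7 ± 2.34. Ccny exons 3 to 7, from the cyclin Y gene, were above 0 in 2 PZH and 6 Control libraries, and Ptprk exons 21 to 25, from a receptor phosphatase gene, in 3 and 6. Cps1 makes carbamoyl phosphate for the urea cycle. Its circle of exons 5 to 11 was above 0 in 4 PZH libraries, at up to 6.34, and in all 6 Control libraries, at 2.79, 6.27 and 7.62.

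The remaining 4 on that side were lower still. The circle of exons 7 to 11 of Pzp, a plasma protease inhibitor, was above 0 in 1 PZH and 5 Control libraries, at up to 0.680 and 2.34 SRPBM. Scaper exons 17 to 21, from a gene for a cyclin A-binding protein, and Strbp exons 6 to 10, from a gene for a double-stranded RNA-binding protein, were each above 0 in 2 PZH and 5 Control libraries. Cast exons 16 to 22, from the gene of the calpain inhibitor calpastatin, were above 0 in 2 and 4, and their unadjusted p was 0.0661. The adjusted p of these 4 lay between 0.551 and 0.678.

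**Figure D3:**
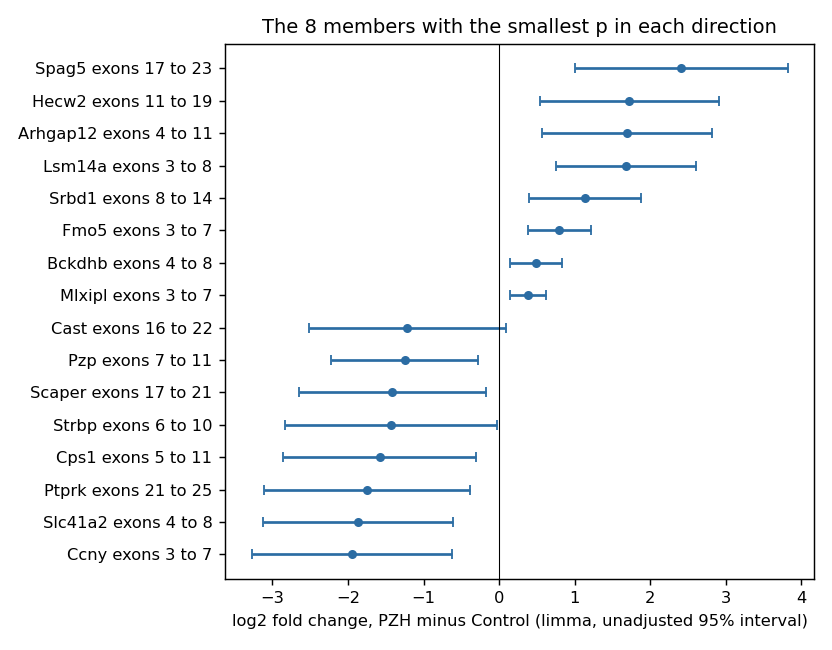
Log2 fold change of PZH minus Control (horizontal axis) for the 8 members with the smallest p in each direction; points are limma estimates on log2(SRPBM + 0.636) and bars their unadjusted 95% intervals. None had an adjusted p under 0.05, and the bar of Cast crosses 0.

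As a class, long internal circles held a larger part of the circRNA signal in PZH livers on average. They held 12.8 ± 0.38% of a library's summed SRPBM in PZH (SD, n = 6), and 11.5 ± 0.54% in Control (SD, n = 6). The 6 PZH libraries lay at 12.4, 12.7 and 13.4% and the 6 Control libraries at 10.8, 11.5 and 12.4%. The groups only just did not overlap, the lowest PZH library being at 12.376% and the highest Control library at 12.374%. Without the 8 most abundant members the shares were 9.04 ± 0.30% and 8.08 ± 0.54%, with overlapping groups. For the 117 members above 0 in all 12 libraries they were 8.16 ± 0.32% and 7.47 ± 0.30%, without overlap. For the remaining members they were 4.65 ± 0.23% and 4.07 ± 0.49%, with overlap. Split into members of 5, 6, 7 to 8 and 9 or more exons, the groups overlapped in every part. No test was made of this sum over the members.

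Circles of 1 or 2 exons lay the other way round. Internal circles of 2 exons held 19.8 ± 0.57% in PZH, between 18.8 and 20.4%, and 21.9 ± 0.64% in Control, between 21.004 and 22.6%. Single-exon circles held 5.22 ± 0.14% and 5.59 ± 0.10%, also without overlap. Internal circles of 3 to 4 exons lay at 24.1 ± 0.36% and 23.7 ± 0.53%, and the groups overlapped. Those of 4 exons alone held 9.48 ± 0.28% and 8.96 ± 0.31%, on the same side as the members and with overlap. Circles of 50 kb or more, with any number of exons, held 2.41 ± 0.12% and 2.05 ± 0.12%. Their groups also only just did not overlap, at 2.230% for the lowest PZH library and 2.226% for the highest Control library. Shares within a library sum to a fixed total, so these values are not independent of each other.

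**Figure D4:**
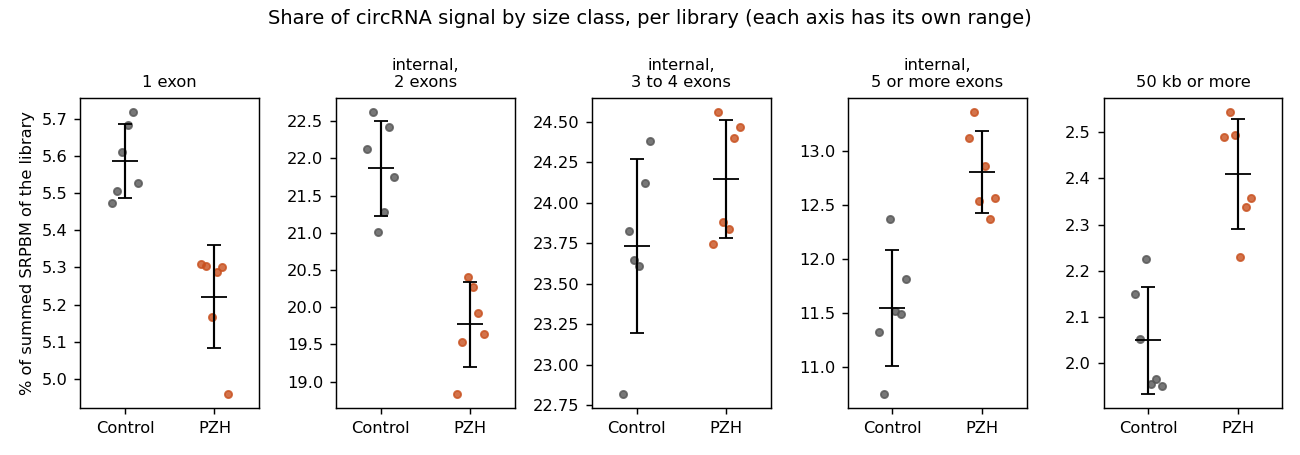
Share of each library's summed SRPBM (vertical axis, percent, with its own range and not from 0 in each panel) on 5 size classes of circRNAs; points are libraries and bars mean ± SD (n = 6). Internal circles of 5 or more exons lie at 12.4 to 13.4% in PZH and 10.8 to 12.4% in Control, and those of 2 exons at 18.8 to 20.4% and 21.004 to 22.6%.

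The fold changes of single circles were also looked at by size, and their medians were lowest for 1 and 2 exons. The median log2 fold change was -0.08 for single-exon circles (181 tested), -0.04 for internal circles of 2 exons (810), 0.02 for 3 exons (743) and 0.14 for 4 exons (471). Among the members it was 0.15 for 5 exons (260), 0.26 for 6 (112), 0.20 for 7 to 8 (109) and 0.21 for 9 or more (23). A median above 0 was not particular to internal circles. It was 0.28 for circles of 50 kb or more (121) and 0.12 for multi-exon circles starting at exon 1 or 2 (916). At an unadjusted p under 0.05, 18 of the internal 2-exon circles were higher and 40 lower, compared with 33 and 7 of the members. Circles of 50 kb or more had 9 higher and 0 lower. Those starting at exon 1 or 2 had 60 higher (6.55%, the same share as for the members) and 28 lower. For circles above 0 in all 12 libraries the medians were -0.04 for single exons (57), -0.09 for 2 exons (234), 0.06 for 3 (195) and 0.16 for 4 (131). Among the members they were 0.18 for 5 exons (70), 0.18 for 6 (24), 0.20 for 7 to 8 (18) and 0.21 for 9 or more (5), and 0.19 for all 117, of which 81 were above 0. In both sets the medians did not climb at every step of size. No test of the difference between size classes was made, since circles are not replicates.

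**Figure D5:**
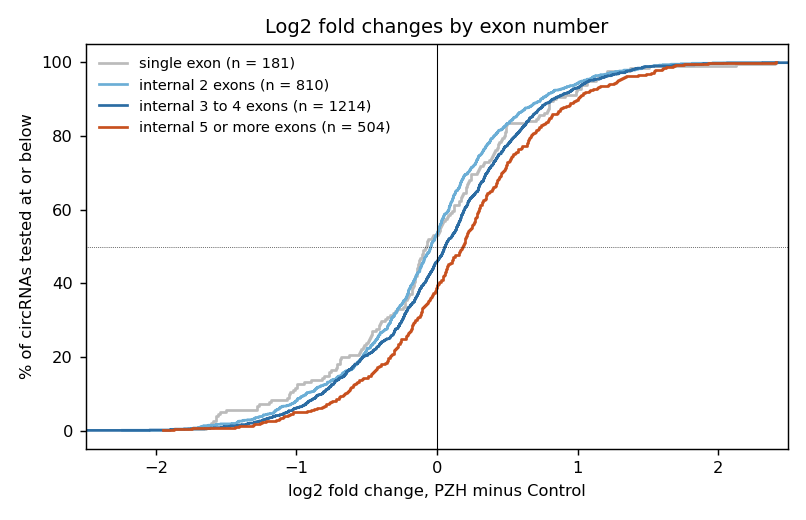
Cumulative percent of circRNAs tested (vertical axis) by log2 fold change of PZH minus Control (horizontal axis, shown from -2.5 to 2.5) for single-exon circles and internal circles of 2, 3 to 4 and 5 or more exons. The curve of the 504 members crosses 50% at 0.18, that of 3 to 4 exons at 0.06 and that of 2 exons at -0.04.

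Size in bases moved with the values within the members too. Members with more than 704 nt of annotated exon had a median log2 fold change of 0.27 (196 tested), and 19 were higher and 0 lower at an unadjusted p under 0.05. Those of 704 nt or less had a median of 0.11 (308 tested), with 14 higher and 7 lower. The longer group held 3.47 ± 0.25% of the signal in PZH and 2.85 ± 0.29% in Control, without overlap. The shorter group held 9.33 ± 0.21% and 8.69 ± 0.35%, with overlap. Split at the median span of 12466 bp, the medians were 0.22 above it and 0.12 at or below it. Internal circles of 3 to 4 exons showed the same order. Their medians were 0.14 above 407 nt of exon and 0.01 at or below it, and 0.13 above a span of 5532 bp and -0.03 at or below it.

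The shares were also taken within the host genes. Of all circRNA signal of the 1531 hosts, members held 22.3 ± 0.61% in PZH and 20.3 ± 0.87% in Control, between 21.6 and 23.2% and between 18.9 and 21.6%. Internal 2-exon circles of the same genes held 17.1 ± 0.59% and 19.1 ± 0.69%. At Abcc2 the circles of 5 and 7 exons that start at exon 12 averaged 96.1 ± 12.8 and 13.1 ± 2.56 SRPBM in PZH, against 79.5 ± 10.2 and 9.42 ± 2.82 in Control. At Gramd1c, a sterol transfer protein, the member of exons 3 to 10 lay at 13.1, 32.4 and 37.4 in Control and 30.4, 43.5 and 57.3 in PZH (0.61 higher on the log2 scale with an SE of 0.23, limma adjusted p = 0.551). There the 4-exon circle of exons 3 to 6 was likewise at higher values in PZH, 213 ± 31.4 against 159.7 ± 23.7.

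Depth and cell markers were looked at beside this pattern. The libraries held 92559 to 129699 read-pair equivalents (SRPBM on the scale on which a library's smallest value above 0 is 2) in PZH and 80442 to 130487 in Control. The least deep PZH library, replicate 1 with 92559, had a member share of 13.1%, and the deepest PZH library, replicate 2 with 129699, had 13.4%, the highest of all. The deepest Control library, replicate 3 with 130487, had 12.4%, the highest of its group. The least deep Control library, replicate 2, had 10.8%, the lowest of all. RNA integrity was not given in the sources used here, and the part of depth or RNA quality in the shares was not tested.

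Circles of all 14 hepatocyte marker genes were found, in sum between 662 and 1031 SRPBM in PZH and between 660 and 1125 in Control. Of 11 hepatic stellate cell markers 5 (Reln, Dlc1, Zeb2, Ank3 and Rbms3) had a circle, with sums of 8.93 to 22.2 in PZH and 3.57 to 9.60 in Control. The defining markers Pdgfrb, Col1a1, Col1a2, Col3a1, Lrat and Des gave no circRNA in the table. Macrophage markers (4 of 6, none from Clec4f or Cd5l) summed to 43.1 to 69.5 and 33.4 to 54.0. Endothelial markers (7 of 8, none from Kdr) summed to 49.2 to 62.4 and 51.4 to 78.8. Cholangiocyte markers (4 of 7, none from Epcam, Sox9 or Krt19) summed to 73.0 to 106 and 66.9 to 111, and lymphocyte markers (3 of 5, none from Themis or Skap1) to 0 to 53.5 and 2.86 to 56.7. Hepatocyte marker genes gave 33 members, at 157 SRPBM in sum, of the 4360 SRPBM of all members. Endothelial marker genes gave 9 (3.525 SRPBM), cholangiocyte 7 (1.65), macrophage 6 (2.32), stellate 1 (1.70) and lymphocyte 0. Markers are only some genes of a cell type, so these sums do not measure its part in the members. The part of cell composition in the shares was not tested.

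By function of the host gene, 828 members came from 9 gene lists and 2111 from genes on none. No list held a member past the threshold. Over all circRNAs tested, 54.3% had a log2 fold change above 0, the median was 0.06, and 4.55% were higher and 3.0% lower at an unadjusted p under 0.05. Hepatocyte enzymes and transporters gave 104 members from 43 genes, of which 21 were tested: 15 had a log2 fold change above 0, with a median of 0.32, and 3 were higher and 1 lower at an unadjusted p under 0.05. The leading ones were Abcc2 exons 12 to 16 and Bckdhb exons 4 to 8. Plasma protein, complement and coagulation genes gave 53 members, 9 tested, of which 2 were above 0, with a median of -0.33. Their most abundant circle, exons 5 to 9 of the kininogen gene Kng2, lay at 14.4, 18.006 and 22.3 SRPBM in Control and 10.4, 15.2 and 30.2 in PZH. Mug2 exons 13 to 17, from a murinoglobulin gene, lay at up to 9.67 and 9.28. The medians of all circRNAs of the genes on these 2 lists, of any size, were 0.18 and -0.14.

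Vesicle traffic genes gave the most members of any list, 158 from 53 genes. Of 30 tested, 22 were above 0, with a median of 0.26, led by Gramd1c and by Trappc11, of a tethering complex, with means of 20.5 ± 2.03 SRPBM (PZH) and 18.6 ± 6.21 (Control) for its exons 11 to 15. Chromatin regulators gave 127 members, 27 tested with 14 above 0 and a median of 0.04, led by Phf21a and by the remodeller gene Ino80, whose exons 10 to 15 averaged 24.1 ± 7.09 and 29.1 ± 6.73. RNA processing genes gave 88 members, 12 tested with 6 above 0 and a median of -0.00. They were led by Gigyf2 and by Upf2, a factor of nonsense-mediated decay, whose exons 4 to 8 averaged 12.4 ± 4.79 and 8.00 ± 2.04.

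The 4 other lists held few members above the filter. Ubiquitin and turnover genes had 83 members and 7 tested (3 above 0, median -0.01), with Trip12 exons 3 to 7 at up to 16.7 SRPBM in PZH and 12.2 in Control. Usp3 exons 4 to 8 averaged 6.50 ± 3.91 and 6.19 ± 4.67. Fibrosis and repair signalling had 79 members and 11 tested (7 above 0, median 0.25), led by the lipid kinase gene Pik3c2a, whose exons 16 to 21 averaged 9.36 ± 1.23 and 7.93 ± 1.93. Pik3r1 exons 3 to 7, of a regulatory subunit of PI3-kinase, were above 0 in 4 libraries of each group. DNA repair and cell cycle genes had 79 members and 11 tested (5 above 0, median -0.07), led by Tlk1 exons 4 to 12 at 4.75 ± 2.97 and 5.61 ± 1.74. Centrosome, cilium and motor genes had 67 members and 5 tested (2 above 0, median -0.17), led by Bbs9 exons 14 to 19 at up to 8.33 and 6.01.

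Presence was counted for the rare members too. Of the 2939, 964 (32.8%) were above 0 only in PZH libraries, 824 (28.0%) only in Control libraries and 1151 in both groups, beside 27.7% and 25.4% of all 16445 circRNAs for the first 2 counts. Of the members found in a single library, 802 were in PZH and 728 in Control, beside 3762 and 3500 of all circRNAs. Above 0 in at least 5 PZH libraries and at most 1 Control library were 6 members (0.204%), beside 0.274% of all circRNAs, and 1 member, that of Pzp, had the opposite pattern (0.0340%, beside 0.152%). Both shares of members are below those of the whole table. Per library 776 ± 70.5 members were above 0 in PZH and 684 ± 119 in Control. As a share of the circRNAs found in a library these were 15.3 ± 0.41% and 14.02 ± 0.65%, between 14.8 and 15.8% and between 13.01 and 14.9%, so that the groups overlapped slightly.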

How the data were processed

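The authors deposited a table with a signal in SRPBM per circRNA and library. Per the submitters' processing notes, Trim Galore and STAR were used with GRCm38 (mm10). The sources used here give no versions, circRNA caller, filters or formula of SRPBM. The deposited values were used unchanged, and no count model was run, since whole reads could not be recovered. Ends were matched to GENCODE M21 exons, without regard to the strand of the reads, and the strand given is the host gene's. Where several transcripts matched, basic ones came first, then those with most exons, then the smallest identifier. The test was limma 3.58.1 (R 4.3.3, with trend) on log2(SRPBM + 0.636), the median of the libraries' smallest values, for the 3870 circRNAs above 0 in at least 6 of 12 libraries (2-sided, Benjamini-Hochberg, threshold 0.05), after a check on simulated data. Fold changes are on this log2 scale, which understates changes of low circRNAs. Ratios were tested by exact permutation over 924 assignments (Python 3.11.15, numpy 2.4.6, pandas 2.3.3). The smallest value of a library was taken as 2 read-pair equivalents.

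Named members are the 8 most abundant, the 8 with the smallest p in each direction, the 2 most abundant of the hosts with most members (4 hosts, since the third place was tied) and of each list, and the 3 with most exons among those above 0 in at least 6 libraries. Junctions are printed for a subset of these. Other circles of their host genes, and the splits by size in bases and within hosts, were chosen after the values were seen. The members and lists were chosen with earlier results of these data known. The labels describe livers of separate mice, and each library is 1 replicate. Same-numbered libraries of the 2 groups share only a number.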

Additional observations from a re-analysis of the deposited data

Results flagged for a closer look

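Among the 6 libraries of a group, 9 of 109 sets of values had their highest or lowest library apart from the rest, by a gap of more than 0.625 of the whole range. For normally distributed values chance does this in about 1 of 20 sets. That rate need not hold for sets with many values of 0, so the count of 9 is not set against it. For Abcc2 exons 12 to 16, PZH replicate 5 (71.6 SRPBM, gap 0.673 of the range) lay below the other 5. Control replicate 4 was high for Ino80 exons 10 to 15 (42.4 SRPBM, gap 0.749), and PZH replicate 6 was high for Tlk1 exons 4 to 12 (10.5 SRPBM, gap 0.666) and Ccny exons 3 to 7 (3.66 SRPBM, gap 0.748). The log2 ratio to the other circles of the host was high in PZH replicate 1 for Tmem56 (3.88, gap 0.642) and Phf21a (6.56, gap 0.756). Arhgap12 exons 4 to 11 and Hecw2 exons 11 to 19 in Control, and Pzp exons 7 to 11 in PZH, were above 0 in a single library, which gives a gap of 1.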

How the results depend on the processing

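Counts of members below are at an unadjusted p under 0.05 in limma, higher and then lower in PZH, beside 33 and 7. With circRNAs above 0 in at least 3 libraries they were 53 and 14 of 996, with those above 0 in all 12 libraries 11 and 0 of 117, and with no filter 51 and 16 of 2939, where the numbers tested differ by construction. Fmo5 alone (1 member) had an adjusted p under 0.05 in the second of these and 5 members did in the third, those of Mlxipl (6.06e-07), Bnip2 (exons 5 to 10, 0.00429), Spag5 (0.0153), Bckdhb (0.0281) and Tmem56 (0.0353), by a cause that was not tested. Bnip2 is named only for this, after its value was seen. With no filter the low circRNAs also enter the spread estimate that limma shares, and these 5 are not counted as calls. Either scaling alternative, the other pseudocounts and a fit without trend left 0 called. With 4 times the pseudocount the median log2 fold change of members was 0.10. Leaving out each library gave 20 to 38 higher, 5 to 10 lower and 0 called. The replicate numbers do not pair the mice: same-numbered libraries correlated between -0.12 and 0.03 in their deviations, and with the replicate block 0 members were called and 29 and 6 were counted. The class holds 1710 circRNAs at 6 or more exons and 4921 at 4 or more. Its share was 4.38% in PZH and 3.77% in Control at 6 or more exons, 9.29% and 8.25% with the transcript of fewest exons, 9.04% and 8.08% without the 8 most abundant members, and 8.16% and 7.47% for members above 0 in all 12 libraries, the last pair chosen after seeing the data. With single libraries left out, log2 fold changes near 0 changed sign, and the cause was not tested: Gigyf2 -0.015 to 0.086, Vwa8 exons 15 to 20 -0.10 to 0.19, Vwa8 exons 17 to 21 -0.82 to 0.12, Kif1b exons 16 to 22 -0.20 to 0.64, Vps50 exons 3 to 9 -0.094 to 0.28, Rev1 -0.46 to 0.28, Kng2 -0.27 to 0.025, Mug2 -0.50 to 0.30, Usp3 -0.14 to 0.56 and Bbs9 -0.45 to 0.31. Rev1 was 0.042 with 4 times the pseudocount. Median-of-ratios scaling gave -0.015 for Gigyf2 and -0.0040 for Vwa8 exons 15 to 20, and scaling to equal sums -0.021 and -0.0094. The host ratios lay at -0.16 to 0.28 for Gigyf2, -0.083 to 0.41 for Nr1h4 and 0.23 to 0.33 for Abcc2. Members near the smallest SRPBM are limited by depth, and their absence from a library is not shown.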
